A study of Mus musculus with 3 samples.

Results

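Transcripts of 10 immediate early genes, Fos, Fosb, Jun, Junb, Egr1, Atf3, Ier2, Ier3, Myc and Dusp1, were followed over single cells of the mouse blastocyst. The genes were chosen by name from the 23154 gene symbols of the count tables, and all 10 were listed in every table. They were read in the 225 of 288 cell barcodes that had a count for at least 2000 genes. The cells came from Klf2-H2Bmcherry mice, a line with a fluorescent histone reporter for Klf2, a gene that responds to fluid flow in endothelium. Embryos were taken at embryonic day 2.5, grown under static and shaking culture, and dissociated as blastocysts at embryonic day 3.5, and blastomeres of mCherry-positive embryos were picked by mouth pipette into 3 libraries of 96 barcodes, called replicates 1 to 3. The labels do not say which cell had static or shaking culture, so all libraries belong to 1 group and no culture contrast was possible. Cells could be compared by library, by marker class and by the column number 1 to 96 that each table gives them, whose meaning is not stated. The same column numbers recur in all 3 libraries, so a number shared between libraries does not mark a shared cell.

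Immediate early genes are transcribed within minutes of a growth factor, mechanical or stress signal, without new protein synthesis, because the factors that switch them on (SRF with its ETS partners, CREB and ATF family members) are already bound or present and are activated by MAP kinases. FOS, FOSB, JUN and JUNB pair into the AP-1 transcription factor, EGR1 and ATF3 are further early transcription factors, and MYC drives growth and cell cycle genes. DUSP1 is a phosphatase that turns the MAP kinases off again, and IER2 and IER3 are small early response proteins, of which IER3 modulates survival. Cell dissociation is a known trigger of the programme in many tissues, together with heat shock genes.

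Promoters are shown because CREB and ATF family factors, among the switches of these genes, act through short sites near the start of transcription. RefSeq promoters (GRCm38.p6, 250 bases before to 50 after the start) were at hand for 7 of the 10 genes. The 150 bases before the start are printed 5′ to 3′ on the gene's own strand for 5 of them, Fos at chr12:85473740-85473889, Jun at chr4:95052223-95052372, Junb at chr8:84978749-84978898, Atf3 at chr1:191183334-191183483 and Dusp1 at chr17:26508473-26508622. The strand is plus for Fos and minus for the others. Capitals mark TGACG, the core of the cAMP response element, or TGACNTCA, its full and jun-type form, on either strand.
Fos: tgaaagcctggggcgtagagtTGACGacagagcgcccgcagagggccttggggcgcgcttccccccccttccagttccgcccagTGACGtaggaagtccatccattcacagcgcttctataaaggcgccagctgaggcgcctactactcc
Jun: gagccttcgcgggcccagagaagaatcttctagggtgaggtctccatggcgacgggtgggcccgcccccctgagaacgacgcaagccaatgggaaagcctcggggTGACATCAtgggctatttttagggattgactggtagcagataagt
Junb: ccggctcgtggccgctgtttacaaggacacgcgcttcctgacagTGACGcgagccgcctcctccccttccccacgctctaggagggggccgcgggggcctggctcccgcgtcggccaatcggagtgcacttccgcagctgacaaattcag
Atf3: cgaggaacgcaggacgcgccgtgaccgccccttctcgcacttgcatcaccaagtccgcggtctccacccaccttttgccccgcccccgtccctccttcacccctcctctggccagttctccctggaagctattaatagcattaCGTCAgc
Dusp1: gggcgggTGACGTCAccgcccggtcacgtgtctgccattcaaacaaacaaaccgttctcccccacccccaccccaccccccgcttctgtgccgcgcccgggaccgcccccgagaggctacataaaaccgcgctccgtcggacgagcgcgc

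TGACG was found on either strand in 5 of 7 member promoters (Atf3, Fosb, Junb, Fos and Dusp1), against 20.8% of all 32851 promoters of the same length. TGACNTCA was found in 2, as TGACATCA 45 bases before the start of Jun and as TGACGTCA in Dusp1, where it overlaps TGACG matches, against 8.83% of all promoters. CCAAT stood in 4 of 7 against 37.4%, and TATAAA in 2 against 13.6%. TGANTCA, the classical AP-1 site, and the serum response element, searched by its CArG consensus, were in none of the 7 windows, against 7.81% and 1.63% of all promoters. These are matches of letters in a short window, and factor binding was not measured. Sites more than 250 bases before the start were not searched, and Egr1, Ier2 and Myc had no promoter at hand. A site absent from these windows may therefore lie elsewhere.

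Library totals were 30573711, 27610866 and 54444536 counts in replicates 1, 2 and 3, and median totals per retained cell were 286484, 345414 and 608734. Replicate 2 stood apart in ribosomal protein genes, at 4.26% of counts against 13.5% and 13.3%. Clusters drawn on marker genes gave 81 cells like trophectoderm (TE-like, the outer epithelium), 75 like inner cell mass (ICM-like) and 69 unnamed cells, 29 of them in replicate 1. In replicates 1, 2 and 3, TE markers summed to 7064, 6262 and 10537 CPM (counts scaled to a common library total) in TE-like cells, against 775, 565 and 515 CPM in ICM-like cells. ICM markers lay closer together, at 4028, 1793 and 3591 CPM in ICM-like cells against 3007, 1137 and 3026 CPM in TE-like cells. Epiblast markers had 768, 535 and 465 CPM in ICM-like cells against 327, 176 and 140 CPM in TE-like cells. Summed primitive endoderm markers went the other way, at 959, 3874 and 1969 CPM in TE-like cells against 786, 1641.5 and 1002 CPM in ICM-like cells. Their mean log2(CPM + 1), which weighs each gene alike, did not. It differed from all other cells by 0.58 in ICM-like cells, and by -0.42 and 0.22 in TE-like clusters of 50 and 31 cells. Pdgfra and Serpinh1 of this list were among the leading genes of ICM-like cells, Lrp2 and Dab2 among those of the TE-like cluster of 50. Marker lists of blood, cumulus, fibroblast and oviduct cells each summed to at most 18.9 CPM per library, while oocyte genes, which are partly maternal, ranged from 32.3 to 229.8 CPM. Junb, Jun and Dusp1 overlap exons of Prdx2, Junos and Ergic1 on the other strand, and the strand setting of the counting is not stated, so reads of such a pair may not be told apart; Prdx2 and Ergic1 had their own values, and Junos was not among the symbols.

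Jun, the AP-1 subunit, had a count in most cells of replicate 1, while Fos, its partner, had one in a minority of cells of every library. Jun was detected in 72.3% of cells in replicate 1 (60 of 83, exact 95% interval 61.4 to 81.6), 48.4% in replicate 2 (31 of 64, 35.7 to 61.3) and 37.2% in replicate 3 (29 of 78, 26.5 to 48.9), a mean of 52.6% ± 17.9 (SD, n = 3 libraries). Fos was detected in 13.3%, 18.8% and 15.4% of cells of replicates 1, 2 and 3, or 15.8% ± 2.77. The Jun shares of replicates 1 and 3 did not overlap in their intervals, whereas those of Fos did. Junb, the AP-1 subunit often opposed to JUN, followed the order of Jun, with 39.8%, 25.0% and 14.1% of cells in replicates 1, 2 and 3. Fosb was near the limit of detection, with a count in 2, 3 and 2 cells of the 3 libraries.

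Among the other transcription factors, Egr1 had a count in 2, 3 and 1 cells of replicates 1, 2 and 3, so the zinc finger factor often used as an activity marker could not be followed further. Atf3, a stress-induced factor, was seen in 21.7%, 7.81% and 6.41% of cells in the same order. Myc had a count in 30.1%, 34.4% and 33.3% of cells (32.6% ± 2.22, SD, n = 3 libraries). Ier2 was detected in 53.01%, 31.3% and 42.3% of cells, and Ier3 in 15.7%, 23.4% and 28.2%. Dusp1, the feedback phosphatase, was detected in 28.9%, 15.6% and 17.9%. Shares say how many cells gave a count at their depth and not how many expressed the gene.

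**Figure D1:**
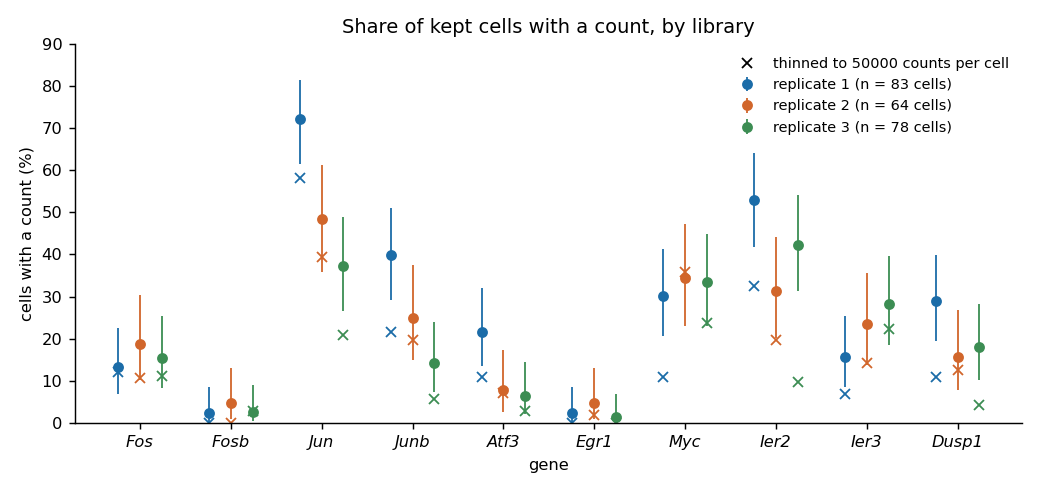
Share of retained cells with at least 1 count (y axis, percent) for each gene (x axis) in replicates 1 to 3, with exact 95% binomial intervals; crosses give the shares after each cell was thinned to 50000 counts. Jun ranges from 72.3% in replicate 1 to 37.2% in replicate 3, while Myc lies between 30.1% and 34.4% before thinning and between 10.8% and 35.7% after it.

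Depth differed between libraries, so cells were also thinned to 50000 counts each, which left 74, 56 and 72 cells and dropped 9, 8 and 6 shallower ones. Jun then had a count in 58.1%, 39.3% and 20.8% of cells of replicates 1, 2 and 3, and Junb in 21.6%, 19.6% and 5.56%. For both genes the order of the libraries was the same as without thinning. Myc had 10.8%, 35.7% and 23.6%, a wider range than without thinning. Fos kept 12.2%, 10.7% and 11.1%. Fosb had a count in 0 of 74 and 0 of 56 thinned cells of replicates 1 and 2, which allows shares of up to 4.05% and 5.36%.

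Summed over the cells of a library, the members were carried by few cells, and in such sums fewer cells with a transcript cannot be told apart from less transcript per cell. Jun stood at 49.4, 48.3 and 18.8 CPM in replicates 1, 2 and 3, and 1 cell gave 15.9%, 34.0% and 30.2% of its counts. Myc stood at 5.18, 43.7 and 19.9 CPM, with 31.6%, 17.7% and 19.4% of the counts in its highest cell. Over the libraries the levels of Myc lay further apart than its raw shares of cells. Junb had 7.17, 15.3 and 3.15 CPM, and its highest cell held 36.1%, 25.2% and 45.6%. Ier2 had 19.7, 4.94 and 7.89 CPM, Ier3 2.56, 4.32 and 14.0 CPM, and Dusp1 3.96, 7.49 and 3.34 CPM. Replicate 1 was the highest library for Ier2, replicate 3 for Ier3 and replicate 2 for Dusp1, so the members did not rank the libraries alike. Fos had 4.72, 16.4 and 5.12 CPM and Atf3 8.09, 7.20 and 0.405 CPM.

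Of the 225 cells, 38 had no count of any member, 48 had 1 member, 46 had 2, 40 had 3, 21 had 4 and 32 had 5 or more, with a maximum of 8. The mean number of members per cell was 2.80, 2.14 and 1.99 in replicates 1, 2 and 3. It moved with depth, with a Spearman rho between members and total counts of 0.68, 0.31 and 0.56 over 83, 64 and 78 cells. After thinning the means were 1.64, 1.61 and 1.03, and rho was 0.17, 0.065 and 0.24. A single unnamed cell of replicate 2, column 21, had counts of 8 members in a total of 287157. It held 451 counts of Jun (1571 CPM), 77 of Atf3 and 75 of Dusp1, and 16.1% of all member counts of its library. The TE-like cell at column 9 of replicate 1 also had 8 members, at 991013 counts, with 84 counts of Jun and 20 of Dusp1.

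The members were unevenly spread over the column numbers. Columns 33 to 64 (set 2) had the fewest members per cell in every library after thinning, at 2.19, 1.23 and 1.45 for sets 1, 2 and 3 in replicate 1, 2.59, 0.563 and 1.33 in replicate 2, and 0.955, 0.560 and 1.56 in replicate 3. Sets 1 (columns 1 to 32) and 3 (columns 65 to 96) changed places between libraries. The sets held 30, 29 and 24 retained cells in replicate 1, 25, 18 and 21 in replicate 2, and 24, 28 and 26 in replicate 3. Thinning gave every cell the same total, and the unthinned means were also lowest for set 2 in replicates 2 and 3, at 1.06 and 1.25, but not in replicate 1, where set 2 had 2.79 and set 3 had 2.29.

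Junb showed the widest gap between sets. In set 2 it had 1.34, 0 and 0.106 CPM in replicates 1, 2 and 3, against 19.5, 36.7 and 8.55 CPM in set 1, and set 3 had 2.19, 7.34 and 1.16 CPM. Set 1 was the highest and set 2 the lowest in each library, and the values of sets 2 and 1 did not overlap. In replicate 2, 0 of 18 cells of set 2 had a count, which allows a share of up to 16.7%, against 12 of 25 cells in set 1. The fitted log2 fold change of set 2 over set 1 was -5.44 (SE 1.41), a value that depends on the prior count because replicate 2 had none in set 2. Set 2 was lower in 3 of 3 libraries, and the contrast did not pass in edgeR (quasi-likelihood, libraries blocked; Benjamini-Hochberg adjusted p = 0.21).

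Jun had 27.1, 0.832 and 2.02 CPM in set 2 of replicates 1, 2 and 3, against 74.96, 103 and 7.79 CPM in set 1, with 59.9, 35.1 and 46.8 CPM in set 3. Set 2 was lowest in each library, while the higher of the other sets was set 1 in replicates 1 and 2 and set 3 in replicate 3. Set 1 of replicate 2 included the cell at column 21, whose 451 Jun counts were 34.0% of those of its library. The log2 fold change of set 2 over set 1 was -3.07 (SE 1.23, edgeR adjusted p = 0.406), and that of set 3 over set 2 was 3.32 (SE 1.21, adjusted p = 0.318). Ier2 had 10.7, 0.238 and 1.59 CPM in set 2, against 36.8, 9.30 and 5.60 CPM in set 1, with 14.5, 4.72 and 16.6 CPM in set 3. The log2 fold change of set 2 over set 1 was -2.51 (SE 0.996, edgeR adjusted p = 0.398).

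**Figure D2:**
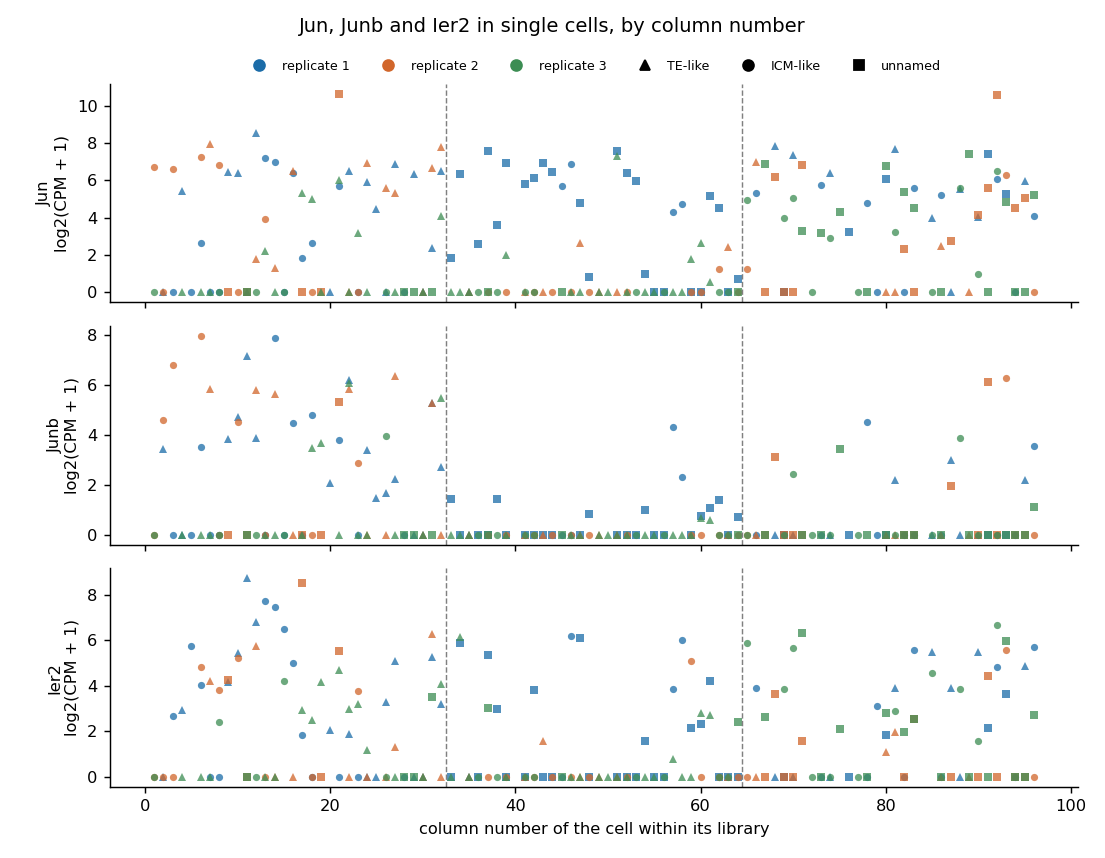
Level of Jun, Junb and Ier2 in each retained cell (y axes, log2(CPM + 1)) by its column number (x axis); colours give the library, shapes the marker class, and dashed lines part the 3 column sets. Junb values above 0 cluster in columns 1 to 32, and between columns 33 and 64 most cells of replicates 2 and 3 lie at 0 for all 3 genes.

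Dusp1 had 2.47, 0 and 1.43 CPM in set 2 of replicates 1, 2 and 3, against 8.74, 18.6 and 5.43 CPM in set 1, with 0.438, 2.94 and 3.31 CPM in set 3. Set 1 was its highest set in each library, and the log2 fold change of set 2 over set 1 was -2.81 (SE 1.58, edgeR adjusted p = 0.52). In set 1 of replicate 2, the cell at column 21 alone held 75 counts of Dusp1, 36.4% of those of its library. Fos had 3.95, 40.5 and 3.93 CPM in set 2, against 5.48, 6.06 and 3.64 CPM in set 1, higher in set 2 in replicates 2 and 3 (log2 fold change 1.22, SE 1.03, adjusted p = 0.68). The 40.5 CPM of replicate 2 came from the cells at columns 47, 51 and 62 alone, and the pair of replicate 3 lay close together. The mean share of cells with a Fos count was lower in set 2, at 12.6% against 18.8% in set 1. Atf3 (log2 fold change -3.99, SE 1.77), Ier3 (-0.98, SE 1.24) and Myc (-0.41, SE 0.75) had adjusted p = 0.435, 0.803 and 0.874 in the same edgeR test. For these 3 genes no set was lowest in all 3 libraries.

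Of the 8 members that passed the filter on low counts (Fosb and Egr1 did not), set 2 was the lowest in all 3 libraries for 3 (Jun, Junb and Ier2), against 9.73% of the 13567 genes tested, and set 1 was the highest in all 3 for 2 (Junb and Dusp1), against 9.17%. No member had set 1 lowest, set 2 highest, set 3 lowest or set 3 highest in all 3 libraries, against 3.29%, 5.98%, 6.84% and 5.38% of genes. In the edgeR F test over the 3 sets 0 of 8 members passed, and so did 0% of the genes tested. At an unadjusted p below 0.05 stood 10.8% of genes and 1 of the 8 members, Junb (edgeR adjusted p = 0.272), while Jun and Ier2 had adjusted p = 0.466 and 0.486. DESeq2 called 686 genes over the sets, Junb among them (adjusted p = 0.00527), and no other member. Without replicate 1 the edgeR contrast of set 2 over set 1 passed for Junb (log2 fold change -7.46, adjusted p = 0.0366). It was the 1 edgeR refit in which a member passed that contrast, and the share of all genes passing it there was not computed. Replicate 2, which that refit retained, had no Junb count in set 2.

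**Figure D3:**
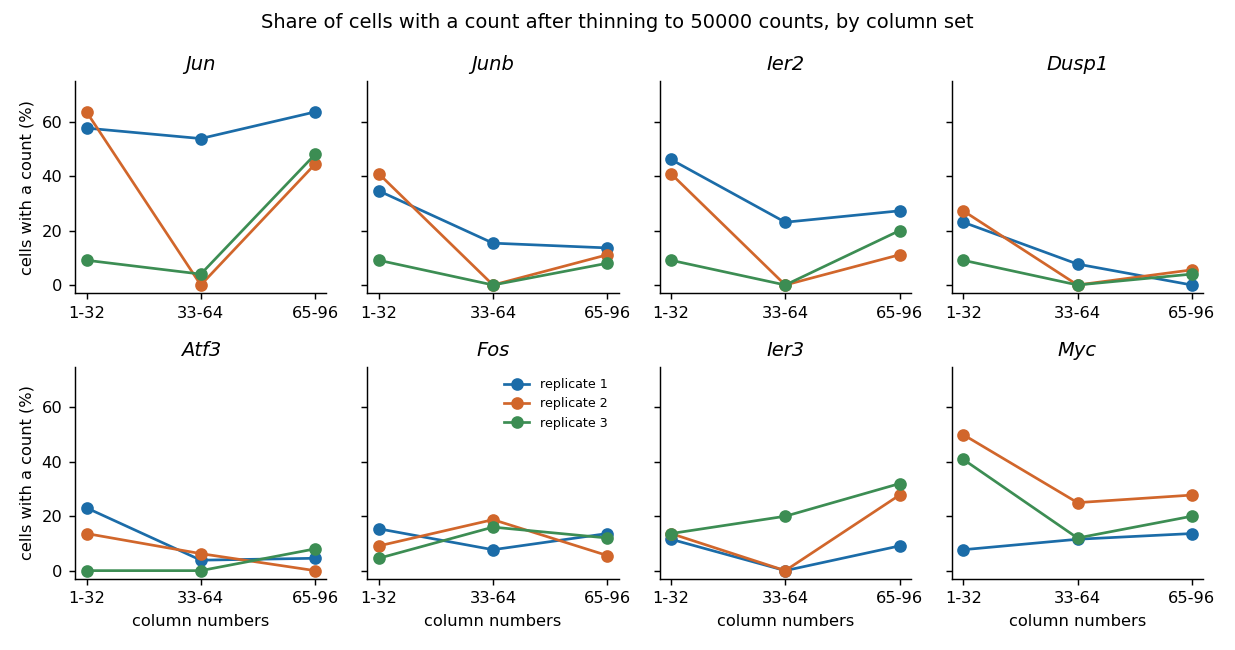
Share of cells with a count after thinning to 50000 counts per cell (y axes, percent) in the 3 column sets (x axes) for 8 members, with 1 line per library. Junb, Ier2 and Dusp1 lie at 0 in set 2 of replicates 2 and 3, whereas Fos and Ier3 do not share this pattern.

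The class make-up of the sets differed as well. Set 2 of replicate 1 had 24 unnamed cells of 29, with 1 TE-like and 4 ICM-like ones, and set 1 of that library had 16 TE-like, 14 ICM-like and 0 unnamed cells. After thinning, the 21 unnamed cells left in set 2 of replicate 1 had a mean of 1 member. The 4 ICM-like cells there had 2.75, more than the ICM-like cells of sets 1 and 3 at 2.08 and 1.25. In replicates 2 and 3 ICM-like cells had the fewest members in set 2, at 0.667 and 0.375. The heat shock list, 11 chaperone genes, summed to 9268 CPM in set 2 of replicate 1 against 22236 CPM in its set 1, and oocyte genes to 382.4 CPM in set 2 against 120.8 CPM in set 1. In replicates 2 and 3 the heat shock sums were 21351 and 15787 CPM in set 2, against 23092 and 18316 CPM in set 1. Prdx2, which overlaps Junb, had 75.2, 84.2 and 615 CPM in set 2 of replicates 1, 2 and 3, against 323, 101 and 376 CPM in set 1, and so was not the lowest in set 2 of replicate 3. With cells thinned to a common total the Junb fold of set 2 over set 1 was -3.54 (edgeR adjusted p = 0.283), and within ICM-like cells alone it was -4.81 (adjusted p = 0.486). Within TE-like cells it was -6.80 (adjusted p = 0.29), from replicates 2 and 3 only, since replicate 1 had 1 TE-like cell in set 2. All 3 values are on the log2 scale, and none of them passed.

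Between TE-like and ICM-like cells no member passed the threshold. Of the 8 tested members, 0 passed in edgeR with libraries blocked, against 6.43% of the 13152 genes tested. Of all genes tested, 4.08% were higher and 2.36% lower in TE-like cells. At an unadjusted p below 0.05 in edgeR stood 0 of the 8 members, against 19.3% of genes. DESeq2 called 0 of the members, and 1703 genes in all. The median log2 fold change was 0.053 over these 8 and 0.0084 over all genes tested. Values of TE-like and ICM-like libraries overlapped for all 10 members. The share of all genes that overlapped was not computed, so this does not set the members apart.

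Jun had 88.2, 32.6 and 6.94 CPM in TE-like cells of replicates 1, 2 and 3, against 41.5, 16.8 and 10.6 CPM in the ICM-like ones. It was higher in TE-like cells in 2 of 3 libraries (log2 fold change 0.56, SE 0.41, edgeR adjusted p = 0.534). Fos had 7.55, 22.2 and 3.89 CPM in TE-like cells, against 1.73, 11.7 and 5.93 CPM in ICM-like cells, again higher in 2 of 3 (0.85, SE 0.74, adjusted p = 0.621). Among the 8 tested members, Ier2 had the same direction in every library, lower in TE-like cells at 21.8, 3.18 and 3.81 CPM, against 41.5, 3.41 and 13.2 CPM in ICM-like cells (-0.90, SE 0.53, adjusted p = 0.412). The pair of replicate 2 lay close together. The share of cells with an Ier2 count was not lower in TE-like cells, at a mean of 43.2% against 41.6% in ICM-like cells. How many of all genes had the same direction in every library was not computed. Atf3, Ier3, Myc and Dusp1 had log2 fold changes of -0.34, 0.36, -0.25 and -0.28 (SE 1.79, 0.78, 0.45 and 0.84, edgeR adjusted p from 0.835 to 0.954). With an SE as wide as that of Atf3, a change of several fold in either direction could have been missed at this depth.

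**Figure D4:**
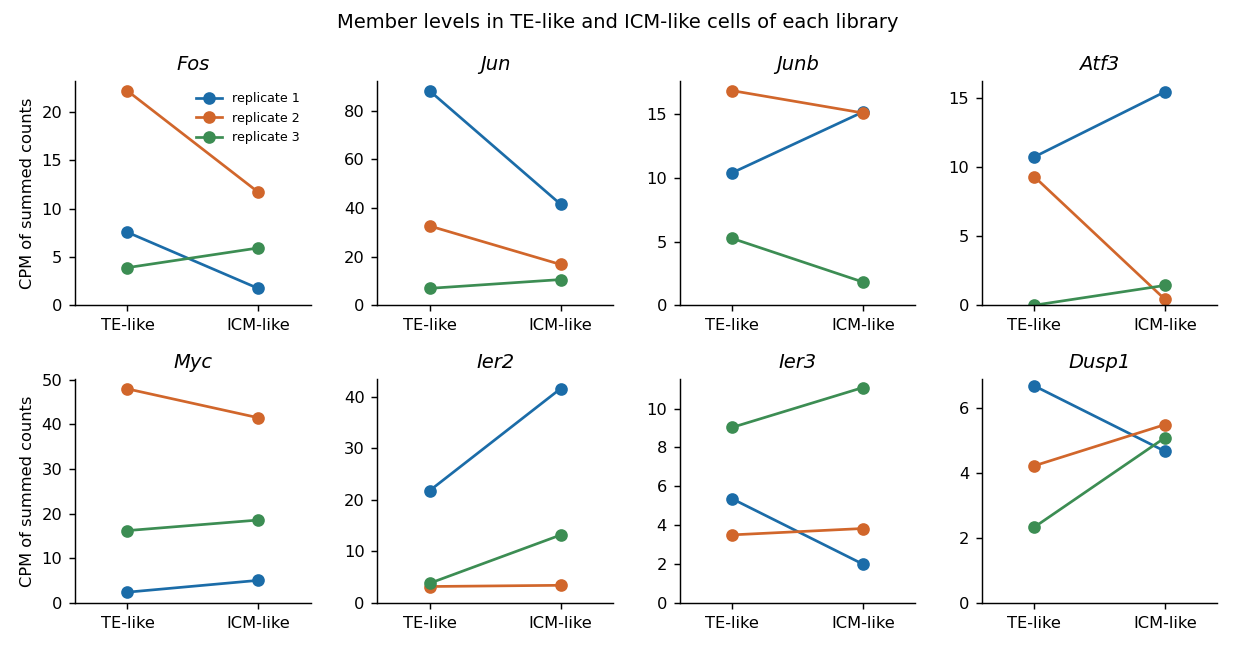
Level of 8 members (y axes, CPM of the summed counts) in TE-like and ICM-like cells (x axes), with 1 line per library. Ier2 is lower in TE-like cells in 3 of 3 libraries, and lines cross or run in both directions for Fos, Jun, Junb, Atf3, Ier3, Myc and Dusp1.

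Junb levels lay further apart between clusters inside the TE-like class than between the classes, a difference that was not tested. It had 10.4, 16.9 and 5.26 CPM in TE-like cells of replicates 1, 2 and 3, against 15.2, 15.1 and 1.82 CPM in the ICM-like class, and the fold change was 0.41 on the log2 scale (SE 0.63, edgeR adjusted p = 0.809). The TE-like cells fell into a cluster of 31 cells, all from columns 1 to 32 and led by Cryab, Ndrg1, Capn2, Id2 and Cdx2, and a cluster of 50 cells from all 3 column sets. In the cluster of 31 Junb had 12.6, 37.9 and 15.2 CPM and a count in 84.6%, 62.5% and 40.0% of cells, and in the cluster of 50 it had 5.20, 0.425 and 0.122 CPM and a count in 38.5%, 6.67% and 9.09%. These shares are not at equal depth. The median total was 1.38 times the library median in the cluster of 31 and 0.88 times in the cluster of 50. The direction against ICM-like cells turned with the cluster, at 1.36 for the cluster of 31 (adjusted p = 0.385) and -3.27 for the cluster of 50 (edgeR adjusted p = 0.188). With the column set as a further block the fold of the whole class was -1.40 (adjusted p = 0.548). Cluster and column set cannot be told apart for the cluster of 31, since none of its cells lay outside set 1, and the fold of set 2 over set 1 within TE-like cells therefore also set different clusters side by side.

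Co-expression over single cells was weak and mostly positive. Ier2 and Junb had the highest mean Spearman rho of log2(CPM + 1) over the 3 libraries, 0.39 (0.30, 0.51 and 0.36 in replicates 1, 2 and 3, over 83, 64 and 78 cells), followed by Jun and Ier2 at 0.31 (0.19, 0.19 and 0.53), Junb and Myc at 0.27, Junb and Dusp1 at 0.25 and Jun and Junb at 0.23. Junb and Ier2 were found together in 44 cells, against 27.1 from the product of their shares within libraries, and Jun and Ier2 in 67 against 53.8. Cells of a library share its depth, and deeper cells had more members, so these values describe the tables and carry no test. After thinning, Junb and Ier2 had 0.23, Jun and Ier2 0.29, and Jun and Junb 0.091.

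The 28 pairs of the 8 better detected members had a median rho of 0.14, and 28 of 28 had a mean above 0, 21 of them above 0 in each library. Pairs of all genes with a count in at least 20% of cells of each library had a median of 0.079, and 78.3% of those 42058206 pairs were above 0. Only 3 members met that limit, so these pairs and the member pairs were unlike in detection. Thinned, the member median was 0.051, with 19 of 28 above 0 and 8 above 0 in each library. A thinned value over the pairs of all genes was not computed. Jun and Ier2 reached 0.45 within ICM-like cells and 0.19 within TE-like cells. Junb and Ier2 showed the other order, with 0.53 within TE-like and 0.28 within ICM-like cells.

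**Figure D5:**
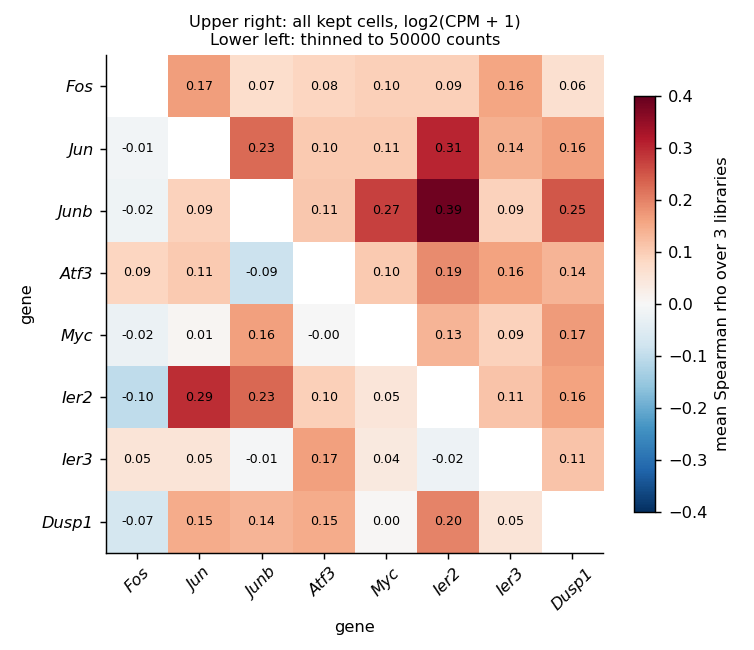
Mean Spearman rho over 3 libraries for each pair of 8 members; the upper right holds log2(CPM + 1) of all retained cells and the lower left cells thinned to 50000 counts, and red is positive. The Junb and Ier2 pair is 0.39 before and 0.23 after thinning, while Jun and Ier2 is 0.31 before and 0.29 after.

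Genes whose level over cells was most like the members' mean rank included, among 9169 genes with a count in at least 20% of cells of every library, Hspb1, Ppcs, Phlda1, Pop5, Tsnax, Dnajb1, Timm50, Snapin and Sf3b4. Their mean rho over the 3 libraries ran from 0.54 for Hspb1, a small heat shock protein, to 0.46 for Sf3b4, a splicing factor, where the median gene had 0.17. Phlda1, itself an early response gene, had 0.50, and Dnajb1, an HSP40 cochaperone, had 0.48. After thinning Hspb1 and Dnajb1 both had 0.40, Phlda1 had 0.30, and the median gene had 0.070.

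The other genes of the pathway were taken as lists and read over the same cells. Of 40 further immediate early genes, 5 (Egr3, Egr4, Cyr61, Ctgf and Arc) were listed at 0 in all cells, for a reason that is not known. Of the 30 tested between classes 2 passed, 1 higher and 1 lower in TE-like cells, against 6.43% of all genes tested. Klf6, a zinc finger factor, was higher in TE-like cells at 153, 288 and 317 CPM in replicates 1, 2 and 3, against 84.7, 91.7 and 81.3 CPM in the ICM-like ones, and the groups did not overlap. Its log2 fold change was 1.55 (SE 0.23, edgeR adjusted p = 0.00369). Socs3, a feedback inhibitor of cytokine signalling, was lower in TE-like cells at 1.53, 0.636 and 0.281 CPM, against 14.4, 130 and 7.95 CPM in ICM-like cells (-5.12, SE 0.84, adjusted p = 0.00676), and its call was lost without replicate 2 (adjusted p = 0.0882). The remaining 28 did not pass, among them Jund, the AP-1 subunit often present without stimulation, with 0.51 (SE 0.69), and Sgk1, a serum- and glucocorticoid-induced kinase, with 0.67 (SE 0.19, adjusted p = 0.0719). The list median was 0.044.

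Of 14 feedback phosphatases and Sprouty proteins, which damp MAP kinase signalling as DUSP1 does, 12 were tested. In TE-like cells 3 were higher and 0 lower, against 4.08% and 2.36% of all genes tested. The list median log2 fold change was 1.02, against 0.0084 over all genes. Dusp14 had 177, 304 and 291 CPM in TE-like cells, against 24.5, 52.5 and 34.7 CPM in ICM-like cells (2.87, SE 0.19, edgeR adjusted p = 4.33e-05). Dusp6, which acts on ERK and is a readout of it in many tissues, had 7.11, 166 and 50.8 CPM in TE-like cells, against 2.66, 4.45 and 7.56 CPM in ICM-like cells (3.23, SE 0.67, adjusted p = 0.0214). The lowest TE-like library lay below the highest ICM-like one, so the groups overlapped although each library had the higher value in TE-like cells. The call of Dusp6 was lost without replicate 2 (adjusted p = 0.116) or replicate 3 (0.105). Dusp4 had 43.4, 46.2 and 12.5 CPM, against 6.92, 21.6 and 3.32 CPM (1.93, SE 0.46, adjusted p = 0.0382), a call lost whichever library was left out (adjusted p from 0.0709 to 0.176). Spred2, a Sprouty-related inhibitor, had 0.52 (SE 0.25, adjusted p = 0.301). Dusp1 itself was not among the feedback genes that passed, at -0.28.

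None of the 20 tested MAP kinase and SRF input genes of 22 passed (0 higher and 0 lower, list median -0.15), nor did any of 10 tested MYC network genes of 11 (median -0.25). Over all genes tested the share that passed was 6.43%. Among the inputs, Atf1 and Mapk14 had log2 fold changes of -0.22 and -0.16 (SE 0.25 and 0.30). Mkl1 and Mkl2 were listed at 0 in all cells, again for a reason that is not known. In the MYC network, Max, the obligate partner of MYC, had a fold change of 0.011 (SE 0.36) and Mycn, its paralogue, 1.69 (SE 0.52, edgeR adjusted p = 0.1005). Mga and Mxi1, which bind MAX in competition with MYC, had -0.25 and -0.92 (SE 0.27 and 0.44). Of the 11 heat shock genes 2 passed, both lower in TE-like cells, where 2.36% of all genes tested were lower. Hsp90ab1 had -0.26 (SE 0.053, edgeR adjusted p = 0.0205) and Dnaja1 -0.33 (SE 0.079, adjusted p = 0.0401). Both calls were lost whichever library was left out, with adjusted p from 0.0625 to 0.249. Hspa8 had -0.022 (SE 0.061), and the list median was -0.019. Hspb1 and Dnajb1, the heat shock genes most like the members over cells, had 0.49 (SE 0.18, adjusted p = 0.157) and 0.39 (SE 0.17, adjusted p = 0.247). In the comparison of column sets 0 genes of any of these lists passed the edgeR F test.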

How the data were processed

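Raw counts of 3 libraries of single cells were used as deposited. Per the labels, reverse transcription primers held a barcode of 8 nt for the cell and a molecular identifier of 8 nt, and the 3′ ends were captured after 17 and 5 PCR cycles. Tools named in the submitters' processing notes are HTSeq, HISAT2 and CASAVA 1.8, with the build mm10. Annotation, strand setting and handling of the identifiers are not given there, so counts may be reads or molecules.

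Barcodes with at least 2000 genes were retained. Cells were clustered on 54 marker genes (log2(CPM + 1), centred per library, 10 principal components, 15 neighbours, Leiden at resolution 0.5). A cluster was named where its marker score exceeded the rest by 0.25; shallow or unmarked clusters stayed unnamed. Hand-picked cells were not passed through a doublet caller. Counts were summed per library and class (at least 8 cells) or column set (at least 3) and tested over all genes with edgeR 4.0.16 (quasi-likelihood, TMM, filterByExpr, library block, Benjamini-Hochberg, threshold 0.05; R 4.3.3). Classes and sets are paired because each library supplied all of them, and classes were drawn on the cells then tested. Each SE is the size of the log2 fold change divided by the square root of its F statistic, and is not a separately fitted standard error. Steps were tested on simulated data. DESeq2 1.42.0 and the other settings were alternatives. Intervals are Clopper-Pearson at 95%, a count of 0 is read as up to 3 counts, and both cover counting error only. Since separate cultures or animals are not recorded for the libraries, p-values reflect only how much these 3 libraries vary, and that spread may be technical.

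Named are the members, the genes called in each list, the 2 of each list with the highest CPM, and the 10 genes most like the members' mean rank, of which 1 is not reported here; other names were chosen after their values were seen. Members, lists and column sets were chosen with earlier results of these data known. Promoters came from RefSeq (GRCm38.p6) and overlaps from GENCODE M21.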

Additional observations from a re-analysis of the deposited data

Results flagged for a closer look

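Counts of members also stood in barcodes that fell short of 2000 genes and entered no comparison. Replicate 2 had 25 such member counts, 6 of Jun and 1 of Junb in nearly empty barcodes, 10 of Ier3 and 8 of Myc in barcodes of 15801 and 3887 counts. Replicate 3 had 8, all of Ier2, and replicate 1 had 0. The retained cells of the same libraries held 4099, 3962 and 3080 member counts in replicates 2, 3 and 1. Their source was not tested.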

How the results depend on the processing

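The number of genes called between TE-like and ICM-like cells, 846, was 1703 in DESeq2, 545 with the TE-like cluster of 50 cells alone, 131 with cells assigned by the higher score and 321 to 908 when a replicate was left out. Without the library block it was 7, and none of the named list genes passed. No member was called in any of these fits. Over the column sets 0 genes became 686 in DESeq2, 4 with thinned cells, 24 within TE-like cells and 0 to 428 when a replicate was left out, 428 without replicate 1. Without the block it remained 0. Thinning brought the mean number of members per cell to 1.42, against 2.31. The mean of the library medians of rho, 0.15, was 0.052 thinned, 0.12 within TE-like and 0.086 within ICM-like cells.

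The log2 fold changes of members between classes, none of them called, turned in 18 recomputed values, and the cause was not tested. Thinning gave -0.61 for Junb, 0.066 for Atf3 and 0.33 for Myc. The library block left out gave 0.14 for Atf3 and 0.021 for Myc. The cluster of 50 cells gave -0.18 for Jun and -3.27 for Junb, and that of 31 cells -0.97 for Ier3 and 0.54 for Dusp1. Classes by score gave 0.44 for Atf3 and 0.56 for Dusp1, dropping oversized cells 0.042 for Atf3, and the column set block -1.40 for Junb. With a replicate left out, the values ran from -0.16 to 0.89 for Junb, -2.30 to 1.76 for Atf3, -0.15 to 0.67 for Ier3, -0.54 to 0.069 for Myc and -0.69 to 0.10 for Dusp1. Of set 2 over set 1, they ran from -0.055 to 1.95 for Fos, -1.28 to 0.46 for Myc and -2.27 to 0.0043 for Ier3, which also turned to 0.43 without the block and 2.86 within TE-like cells. Jun, Junb, Ier2, Dusp1 and Atf3 kept their sign of set 2 over set 1 in the settings that gave a value. Leaving out the highest cell of each library, chosen after seeing the data, turned no sign.

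Fosb and Egr1 failed the filter on low counts, so no fold change of theirs was tested at these depths, and a pseudocount of 10 cannot change ranks.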
